A study of Mus musculus with 21 samples.

Results

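The genes described are 9 feedback inhibitors of the ERK pathway, namely the dual-specificity phosphatases Dusp1, Dusp4, Dusp5 and Dusp6, the Sprouty genes Spry1, Spry2 and Spry4, and the Spred genes Spred1 and Spred2. They were taken by gene symbol, and all 9 were present in each of the 3 tables, out of 13253 genes found in at least 1 table and 11874 found in all of them. The tables report on E14 mouse embryonic stem cells, a line from the inner cell mass of the blastocyst, in which RACK1, RPLP0 or RPLP1 had been fused to an auxin-inducible degron (genotype labels RACK1-AID/RPS26-Tir1, RPLP0-AID/RPS26-Tir1 and RPLP1-AID/RPS26-Tir1). Tir1, the plant receptor that auxin uses to direct tagged proteins to the proteasome, is named in the labels together with RPS26. Cells of each line received auxin (IAA) or its solvent DMSO for 8 h. For each line there were 3 mRNA samples with IAA, 3 mRNA samples with DMSO, and a single ribosome profiling sample that combined the replicates of both treatments. RACK1 is a signalling scaffold that sits on the small ribosomal subunit. RPLP0 and RPLP1 form part of the large subunit's stalk, the landing site of elongation factors.

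All groups carried a degron and Tir1, and no line without a degron was analysed here, so an effect of IAA itself and the effect of removing the protein cannot be told apart. The sources used here do not say whether a line is a single clone, which medium the cells grew in, or whether replicates were separate cultures. The tables hold the authors' log2 fold changes and false discovery rates (FDR, an adjusted p-value) and no value per sample, so depth and level are unknown and no mean with its SD can be given. In place of the SD, a standard error (SE) and a 95% interval were derived from each fold change and its FDR. They measure at most the spread that the authors' test measured. Where genes share an FDR, they also rest on an assumed order of those genes. For footprints, with a single combined sample per line in the labels, it is not stated what that spread is. The column headers do not name a numerator, and a positive change was taken to mean a higher value with IAA. All 7 stem cell markers were in each table, and so were 4 of 5 fibroblast markers, and without levels the labelled cell type could not be checked further. In bulk samples, fewer cells of a type and less RNA per cell cannot be told apart.

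ERK is the last kinase of a relay that runs from growth factor receptors through Ras, Raf and MEK. In embryonic stem cells it is driven largely by FGF4 and moves cells out of the naive state. Active ERK induces its own inhibitors, so their mRNAs are widely used as a readout of the pathway. Dual-specificity phosphatases remove phosphate from ERK itself, Sprouty proteins act nearer the receptor and Ras, and Spred proteins bring the Ras inactivator neurofibromin to the membrane.

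In no line were more than 2 of the 9 inhibitors called in an assay. Dusp1 mRNA rose after RACK1 removal and fell after RPLP0 removal, Dusp6 rose in mRNA and footprints after RPLP1 removal, and Spred1 mRNA rose after RPLP1 removal. These are 5 of the 54 values that the 9 genes have over 3 lines and 2 assays, at the authors' FDR below 0.05. The other 49 values are shown with their intervals in the plot of changes by gene, and a value that missed the threshold is not thereby shown to be unchanged. By line, assay and direction, the share of all genes called at this threshold ran from 0.00775% (RACK1 footprints, lower) to 8.59% (RPLP1 mRNA, lower). These shares are given below beside the counts.

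**Figure D1:**
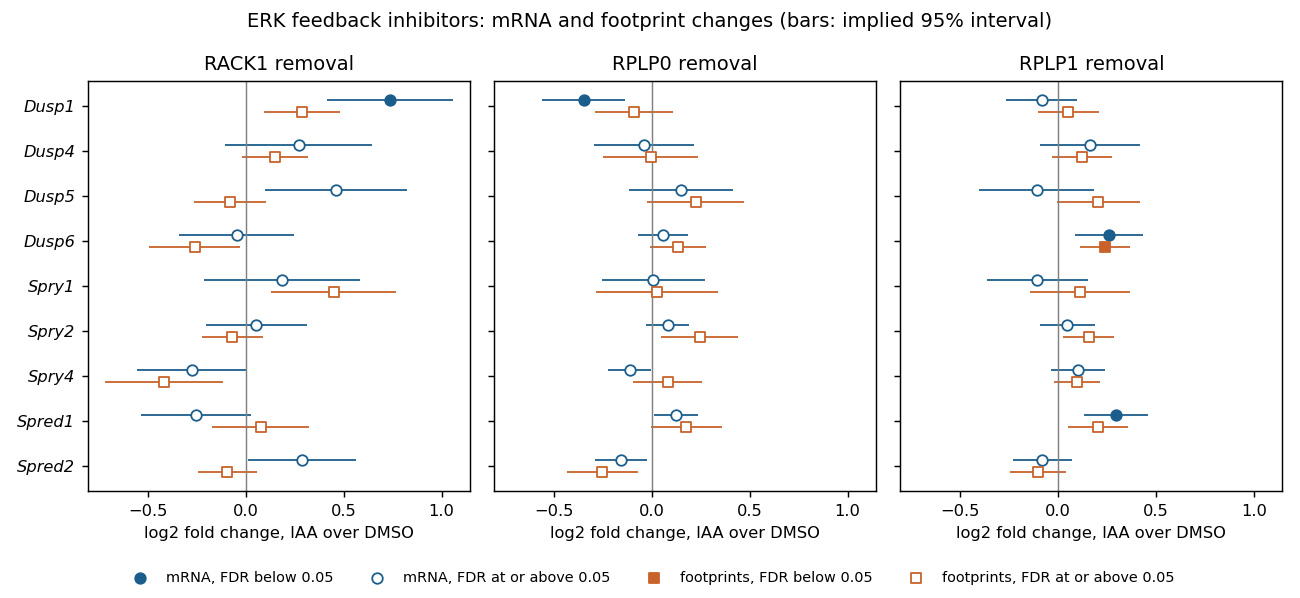
Log2 fold change (IAA over DMSO) of mRNA (circles) and ribosome footprints (squares) for the 9 inhibitors in each line, with bars for the implied 95% interval and filled symbols for an authors' FDR below 0.05. Filled symbols are Dusp1 mRNA after RACK1 removal (0.74) and RPLP0 removal (-0.35), and Dusp6 mRNA (0.26), Dusp6 footprints (0.24) and Spred1 mRNA (0.30) after RPLP1 removal.

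Dusp1 (ENSMUST00000025025.6) encodes MKP-1, a nuclear phosphatase of p38, JNK and ERK whose gene is itself switched on within minutes of a growth or stress signal. Its mRNA rose after RACK1 removal by 0.74 on the log2 scale (FDR 0.00378; SE 0.16) in the authors' deposited table, a 1.67-fold increase with a 95% interval of 0.42 to 1.06 on the log2 scale. It held rank 21 by FDR among 12905 mRNAs. Of the 9 inhibitors it was the 1 called higher in that line and none was called lower, against 0.17% of all mRNAs called higher and 0.31% called lower. After RPLP0 removal Dusp1 mRNA fell by 0.35 on the log2 scale (FDR 0.0189; SE 0.11), a fold of 0.786, again in the authors' deposited table. It was the 1 inhibitor called lower in the RPLP0 line and none was called higher, where 4.9% of all mRNAs were called lower and 5.05% higher. After RPLP1 removal the authors' deposited table gave Dusp1 mRNA a change of -0.08 (FDR 0.586), with an interval of -0.26 to 0.10.

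Dusp1 footprints had no called change. The authors' deposited table listed 0.29 (FDR 0.411) after RACK1 removal, -0.09 (FDR 0.628) after RPLP0 removal and 0.05 (FDR 0.707) after RPLP1 removal. The RACK1 value has an interval of 0.09 to 0.48. Its difference from the mRNA change was -0.45 (interval -0.82 to -0.08), which did not pass the approximate test over all genes. The authors' own class codes put Dusp1 in the class of mRNA change alone in the RACK1 and RPLP0 lines and in the class of no change in the RPLP1 line.

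The mRNA responses of Dusp1 differed between lines. The RACK1 line stood 1.09 above the RPLP0 line on the log2 scale (0.74 in RACK1 and -0.35 in RPLP0; SE 0.20, interval 0.70 to 1.47), and the difference passed over 12047 genes. It stood 0.82 above the RPLP1 line (0.74 in RACK1 and -0.08 in RPLP1; SE 0.19, interval 0.45 to 1.19), which passed over 12137 genes. The RPLP1 line was 0.26 above the RPLP0 line, a difference that did not pass (-0.08 in RPLP1 and -0.35 in RPLP0; SE 0.14, interval -0.01 to 0.54). These tests use a normal approximation on the derived standard errors with Benjamini-Hochberg adjustment over all genes in both tables, and a value passed at an adjusted p below 0.05. With 3 mRNA samples a group the approximation is rough, so the intervals are given in place of its p-values. Each line has its own DMSO samples. With standard errors taken 1.5 times as large neither difference passed.

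The promoter of Dusp1 is shown with those of Dusp5, Dusp6 and Spred1, because Dusp1, Dusp6 and Spred1 had called changes and Dusp5 had the next-highest mRNA change after RACK1 removal. Sequences are RefSeq windows of 250 bases before to 50 bases from the start site on (build GRCm38.p6), 5′ to 3′ on the gene's strand, at chr17:26508423-26508722 (minus strand), chr19:53528895-53529194 (plus strand), chr10:99262981-99263280 (plus strand) and chr2:117120821-117121120 (plus strand). Capitals mark matches on either strand to the core TGACG and the longer form TGACGTC of the cAMP response element (CRE), the ETS motif CGGAAG, the AP-1 motif TGANTCA, and the CArG box of serum response factor; every longer CRE match contains a core match.
Dusp1: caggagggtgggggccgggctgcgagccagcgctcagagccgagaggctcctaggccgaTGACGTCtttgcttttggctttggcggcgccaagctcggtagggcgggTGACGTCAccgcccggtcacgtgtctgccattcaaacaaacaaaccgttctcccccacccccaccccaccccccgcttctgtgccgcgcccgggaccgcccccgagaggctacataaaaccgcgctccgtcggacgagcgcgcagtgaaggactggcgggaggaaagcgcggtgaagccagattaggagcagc
Dusp5: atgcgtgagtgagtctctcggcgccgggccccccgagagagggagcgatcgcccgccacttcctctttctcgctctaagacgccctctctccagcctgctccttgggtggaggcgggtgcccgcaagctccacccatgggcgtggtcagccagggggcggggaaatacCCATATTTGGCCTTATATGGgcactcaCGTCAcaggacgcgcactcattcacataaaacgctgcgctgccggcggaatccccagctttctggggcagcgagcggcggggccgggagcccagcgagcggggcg
Dusp6: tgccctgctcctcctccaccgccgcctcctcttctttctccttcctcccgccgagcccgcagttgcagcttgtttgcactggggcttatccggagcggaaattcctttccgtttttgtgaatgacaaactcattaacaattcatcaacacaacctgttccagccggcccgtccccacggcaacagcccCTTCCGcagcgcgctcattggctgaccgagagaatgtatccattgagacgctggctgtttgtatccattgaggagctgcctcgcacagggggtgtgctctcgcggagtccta
Spred1: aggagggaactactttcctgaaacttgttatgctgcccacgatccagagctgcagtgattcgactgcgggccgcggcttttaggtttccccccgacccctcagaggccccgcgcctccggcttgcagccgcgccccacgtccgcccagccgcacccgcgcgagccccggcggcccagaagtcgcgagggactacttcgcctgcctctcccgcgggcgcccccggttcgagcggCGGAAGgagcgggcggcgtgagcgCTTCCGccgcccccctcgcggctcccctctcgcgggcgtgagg

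The Dusp1 window held the longer CRE form with its first base at -191 and at -143 from the start site, the match at -143 overlapping another on the opposite strand. The longer form was in 2 of the 7 inhibitor windows used (Dusp1 and Spred2) and in 3.21% of 32851 windows of the same length in the table. Dusp5 held 2 CArG boxes end to end, the first of them starting at -82, followed by a CRE core. It was the 1 of 7 windows with a CArG box, which 1.63% of all windows hold. An ETS match was in 3 of 7 windows, those of Dusp6, Spred1 and Spred2, and in 16.9% of all windows. A CRE core was in 3 of 7, Dusp1, Dusp5 and Spred2, and in 20.8% of all. No inhibitor window held the AP-1 motif, which 7.81% of all windows hold. The GC content of the 7 windows ran from 57.0% to 72.3%, with a median of 64.3%, where the median of all windows was 52.7%. A match describes letters in a window and does not show that a factor binds there.

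**Figure D2:**
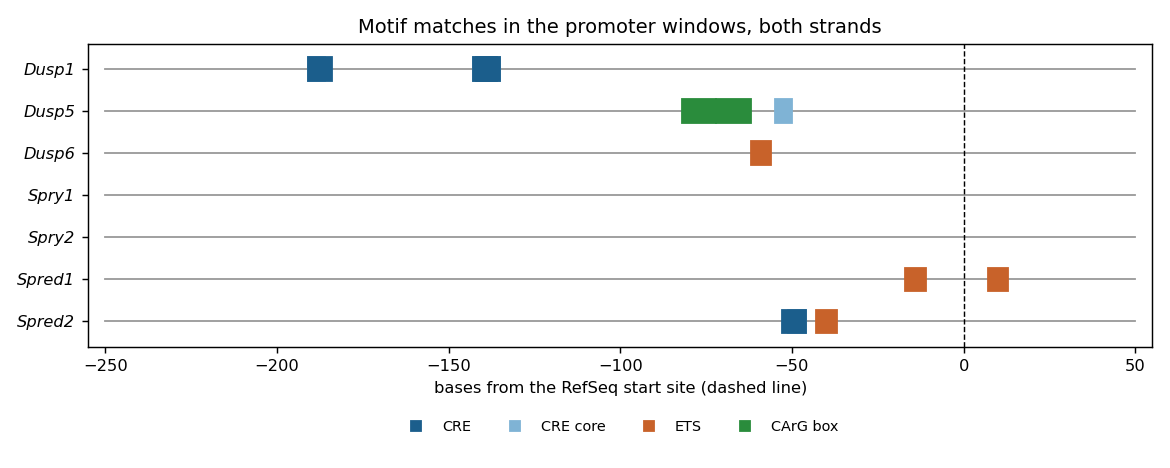
Positions of motif matches on both strands in the 7 inhibitor promoter windows, in bases from the RefSeq start site. Dusp1 has the longer CRE form at -191 and -143, Dusp5 has 2 adjoining CArG boxes from -82, and the Spry1 and Spry2 windows hold none of the motifs searched.

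Dusp6 (ENSMUST00000020118.4) encodes MKP-3, a cytoplasmic phosphatase selective for ERK and a standard readout of FGF signalling. After RPLP1 removal it rose by 0.26 in mRNA (FDR 0.0284; SE 0.09) and by 0.24 in footprints (FDR 0.0121; SE 0.07) in the authors' deposited table, folds of 1.20 and 1.18. It was the only inhibitor called in both assays in any line. In the RPLP0 line the authors' deposited table gave 0.06 for mRNA (FDR 0.643) and 0.13 for footprints (FDR 0.276). For the RACK1 line the authors' deposited table gave -0.05 for mRNA (FDR 0.940) and -0.26 for footprints (FDR 0.559). The footprint value lay at the 5.53 percentile of the table. Dusp6 footprints in the RACK1 line were 0.50 below those of the RPLP1 line on the log2 scale (-0.26 in RACK1 and 0.24 in RPLP1; SE 0.13), which did not pass over all genes (interval -0.77 to -0.24). Dusp1 and Dusp6 had opposite signs in 5 of the 6 combinations of line and assay, the exception being footprints after RPLP1 removal. Spry2 and Spry4, by contrast, had opposite signs in 2 of the 6. Besides these pairs only Spred1 with Spred2 was counted, and no share over other pairs of genes was computed. Most of these signs belong to values that were not called.

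Spred1 (ENSMUST00000028829.12) mRNA rose by 0.30 after RPLP1 removal (FDR 0.00632; SE 0.08), a fold of 1.23, and its footprints stood at 0.20 without passing (FDR 0.077), per the authors' deposited table. With Dusp6 it made 2 of 9 inhibitors called higher in mRNA in that line and none lower, where 5.64% of all mRNAs were called higher and 8.59% lower. In footprints 1 of 9 inhibitors, Dusp6, was called higher and none lower, where 3.54% of all genes were called higher and 4.85% lower. After RPLP0 removal Spred1 had 0.12 for mRNA (FDR 0.163) and 0.18 for footprints (FDR 0.255) in the authors' deposited table. After RACK1 removal it had -0.25 for mRNA (FDR 0.528) and 0.08 for footprints (FDR 0.901), per the authors' deposited table. The mRNA change in the RACK1 line was 0.55 below that in the RPLP1 line (-0.25 in RACK1 and 0.30 in RPLP1; SE 0.17, interval -0.87 to -0.23), and the difference passed. With standard errors taken 1.5 times as large it did not pass.

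Spred2, the closest relative of Spred1, had the opposite sign to it in all 6 combinations of line and assay, the most of the 3 pairs within a family that were counted. In the authors' deposited table Spred2 had 0.29 for mRNA (FDR 0.433) and -0.09 for footprints (FDR 0.777) after RACK1 removal. For RPLP0 the authors' deposited table listed -0.16 for mRNA (FDR 0.119) and -0.25 for footprints (FDR 0.0961). For RPLP1 the authors' deposited table listed -0.08 (FDR 0.520) and -0.10 (FDR 0.381). No Spred2 value passed, and the difference between the 2 genes was not tested. The authors' class codes, which reach to looser rates than 0.05, place Spred2 in the class changed in both assays after RPLP0 removal and Spred1 in the same class after RPLP1 removal. The mRNA change of Spred2 in the RACK1 line was 0.45 above that in the RPLP0 line (0.29 in RACK1 and -0.16 in RPLP0; SE 0.16, interval 0.14 to 0.75), which did not pass.

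Dusp5, a nuclear phosphatase selective for ERK, had 0.46 for mRNA after RACK1 removal (FDR 0.292) and -0.08 for footprints (FDR 0.851) in the authors' deposited table. Its mRNA change lay at the 94.0 percentile of the table, second among the inhibitors to Dusp1 at 97.5. After RPLP0 removal the authors' deposited table gave 0.15 (FDR 0.543) and 0.23 (FDR 0.286), and after RPLP1 removal -0.11 (FDR 0.669) and 0.21 (FDR 0.198). Dusp4, the nuclear phosphatase MKP-2, was positive in both assays after RACK1 removal, with 0.27 for mRNA (FDR 0.641) and 0.15 for footprints (FDR 0.656) in the authors' deposited table. Its RPLP0 values were -0.04 (FDR 0.900) and -0.0041 (FDR 0.991), and its RPLP1 values 0.16 (FDR 0.414) and 0.12 (FDR 0.316), in the authors' deposited table. Both genes were imprecise: the implied standard errors of their mRNA changes were above the table median in every line. The same held for Spry1, in both assays.

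The Sprouty genes had no called value. Spry2, the family member best known for restraining FGF receptor signalling, was positive in both assays after removal of either stalk protein. In the authors' deposited table its footprints stood at 0.24 after RPLP0 removal (FDR 0.139) and 0.16 after RPLP1 removal (FDR 0.112), and its mRNA changes were 0.08 (FDR 0.401) and 0.05 (FDR 0.689). After RACK1 removal Spry2 had 0.05 for mRNA (FDR 0.921) and -0.07 for footprints (FDR 0.851) in the authors' deposited table.

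Spry4 had the lowest mRNA and footprint changes of the 9 after RACK1 removal, -0.27 (FDR 0.472) and -0.41 (FDR 0.460) in the authors' deposited table. The footprint value lay at the 1.89 percentile of the table. Spry4 had -0.11 for mRNA (FDR 0.196) and 0.08 for footprints (FDR 0.616) in the RPLP0 line, and 0.10 (FDR 0.324) and 0.10 (FDR 0.287) in the RPLP1 line, per the authors' deposited table. Spry1 had the highest footprint change of the 9 after RACK1 removal, 0.45 (FDR 0.455), beside 0.19 for mRNA (FDR 0.797) in the authors' deposited table. Its footprint value lay at the 98.4 percentile, so Spry1 and Spry4 lay near opposite ends of the footprint distribution in that line. Spry2 lay between them at the 31.8 percentile. Both outer values were imprecise, with an SE of 0.16 (Spry1) and 0.15 (Spry4) where the table median was 0.097. In the stalk lines the authors' deposited table gave Spry1 0.01 (FDR 0.979) and 0.03 (FDR 0.938) after RPLP0 removal, and -0.10 (FDR 0.639) and 0.11 (FDR 0.612) after RPLP1 removal, mRNA first.

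**Figure D3:**
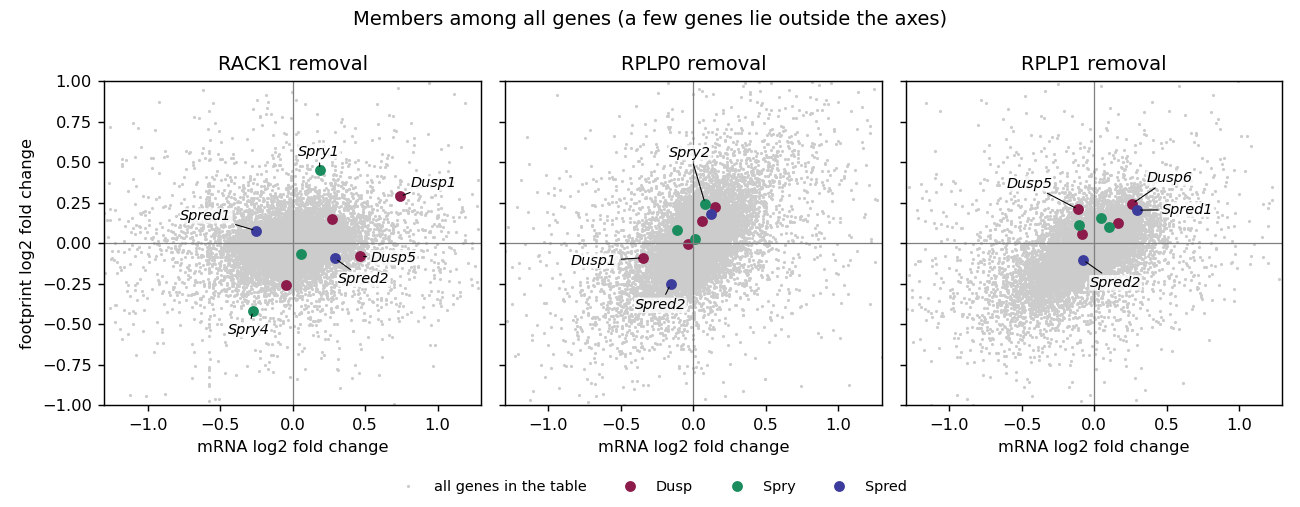
Footprint log2 fold change against mRNA log2 fold change for all genes (grey) and the 9 inhibitors coloured by family, 1 panel per line. Dusp1 lies toward the right edge of the cloud after RACK1 removal (0.74 for mRNA), and Dusp6 and Spred1 lie together at the upper right after RPLP1 removal, opposite Spred2.

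As a list, the inhibitors had median mRNA changes of 0.19 in the RACK1 line, 0.01 in RPLP0 and 0.05 in RPLP1, beside medians of all genes of 0.00036, 0.0014 and -0.0054. Their footprint medians were -0.07 in RACK1, 0.08 in RPLP0 and 0.12 in RPLP1, beside -0.014, -0.00043 and -0.0056 for all genes. Without its gene of largest change the mRNA median was 0.12 in RACK1 and 0.034 in RPLP0 (Dusp1 left out in both) and -0.015 in RPLP1 (Spred1 left out). Stem cell markers also lay above 0 in mRNA after RACK1 removal, 7 of 7 with a median of 0.18 and none called. In RPLP0 mRNA 5 of 7 lay below 0 and 1 was called lower, and in RPLP1 mRNA 5 of 7 lay above 0 and 1 was called higher. In the RPLP1 line 4 of 4 fibroblast markers lay below 0 in each assay, 1 of them called in footprints and none in mRNA. In the RPLP0 line 1 of 4 fibroblast markers, Col1a1, was called higher in mRNA and the other 3 lay below 0. The part of these markers in the inhibitors' values was not tested. In footprints 8 of 9 inhibitors were above 0 after RPLP1 removal, all but Spred2, where 48.5% of all genes were. The count was 6 of 9 in RPLP0 (49.9% of all genes) and 4 of 9 in RACK1 (45.1% of all genes). Stem cell markers above 0 in footprints numbered 6 of 7 in RPLP1, 6 of 7 in RPLP0 and 4 of 7 in RACK1. No inhibitor passed in footprints in the RACK1 or RPLP0 line, where 4 and 2 had an implied unadjusted p below 0.05, as did 8.29% and 20.7% of all genes. The share of all genes called by FDR there was 0.0232% higher and 0.00775% lower in RACK1, and 1.42% higher and 1.04% lower in RPLP0. In the RACK1 line mRNA and footprints had the same sign for 5 of 9 inhibitors, where 54.8% of all genes did. The count was 8 of 9 in RPLP0 (67.3% of all genes) and 6 of 9 in RPLP1 (71.4%).

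Translation efficiency, the footprint change minus the mRNA change, passed the approximate test for none of the 9 inhibitors in any line. Over all genes 0.116% passed in RACK1, 0.0081% in RPLP0 and 0.0326% in RPLP1, and the count of inhibitors with an unadjusted p below 0.05 was 3 in RACK1 and 0 in each stalk line, where 7.92% of all genes had one in RACK1, 6.61% in RPLP0 and 7.37% in RPLP1. Those 3 were Dusp5 (-0.54, SE 0.21), Dusp1 (-0.45, SE 0.19) and Spred2 (-0.38, SE 0.16). All 3 had positive mRNA changes with lower footprint changes, and their mRNA changes were the highest of the 9 in that line. The mRNA change is subtracted in this measure, so an error that raises it also lowers the difference. The part of such errors was not tested. If the errors of the assays are given a correlation of 0.5, Dusp5 and Dusp1 passed in the RACK1 line, among 420 genes in all, against 15 genes without that correlation. Across the list 7 of 9 inhibitors had footprints below mRNA after RACK1 removal, all but Spry1 and Spred1, where 51.8% of all genes did. The count was 1 of 9, Spred2, after RPLP0 removal (50.2% of all genes) and 5 of 9 after RPLP1 removal (49.6%). Stem cell markers had footprints below mRNA for 7 of 7 after RACK1 removal, with a median of -0.20, and for 0 of 7 after RPLP0 removal. The medians over the inhibitors were -0.14 in RACK1, 0.07 in RPLP0 and -0.0044 in RPLP1, beside -0.011, -0.00098 and 0.0013 for all genes.

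**Figure D4:**
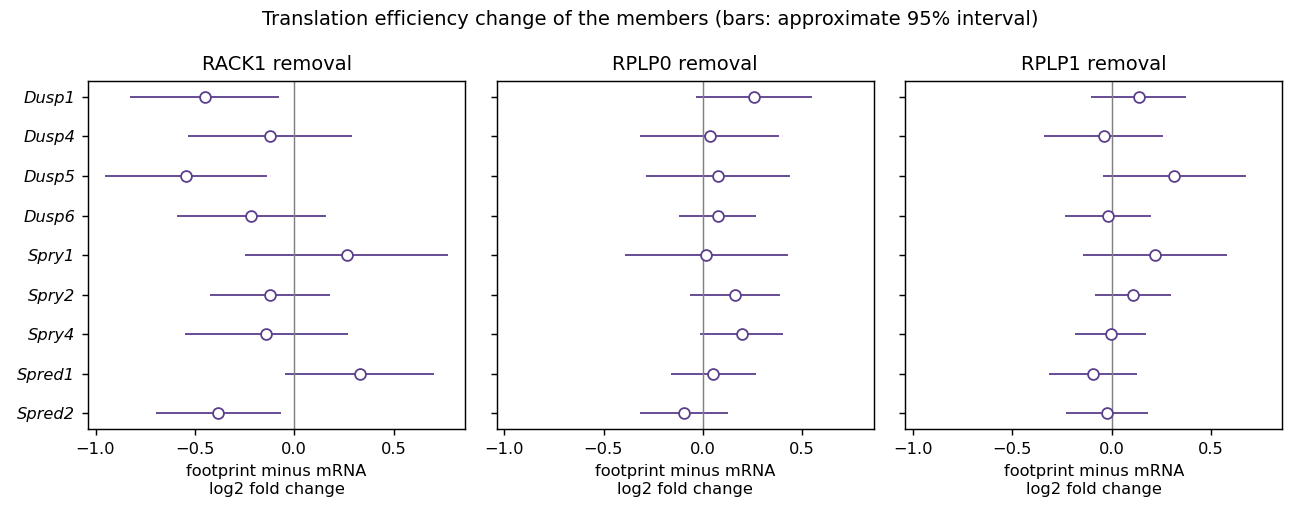
Footprint minus mRNA log2 fold change of the 9 inhibitors in each line, with bars for the approximate 95% interval. The 4 phosphatases lie below 0 after RACK1 removal, from -0.54 (Dusp5) to -0.12 (Dusp4), and above 0 after RPLP0 removal, from 0.03 (Dusp4) to 0.26 (Dusp1); no value passed over all genes.

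Comparing lines over all 9 inhibitors gave 54 differences, of which 3 passed, all in mRNA. Between RACK1 and RPLP0 1 of 9 mRNA differences passed (Dusp1; 3.27% of all genes passed) and between RACK1 and RPLP1 2 of 9 (Dusp1 and Spred1; 7.91% of all genes). Between RPLP1 and RPLP0 none of 9 passed in mRNA, while 12.2% of all genes did, and 1 of 9 had an unadjusted p below 0.05 beside 25.7% of all genes. In footprints no inhibitor passed in any pair of lines. There 4, 4 and 0 inhibitors had an unadjusted p below 0.05 in RACK1 minus RPLP0, RACK1 minus RPLP1 and RPLP1 minus RPLP0, beside 16.2%, 10.6% and 23.8% of all genes. After adjustment 0.631%, 0.107% and 4.72% of all genes passed. The 1 mRNA value with an unadjusted p below 0.05 between the stalk lines was Spry4, 0.22 higher in RPLP1 (0.10 in RPLP1 and -0.11 in RPLP0; SE 0.09, interval 0.04 to 0.39).

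**Figure D5:**
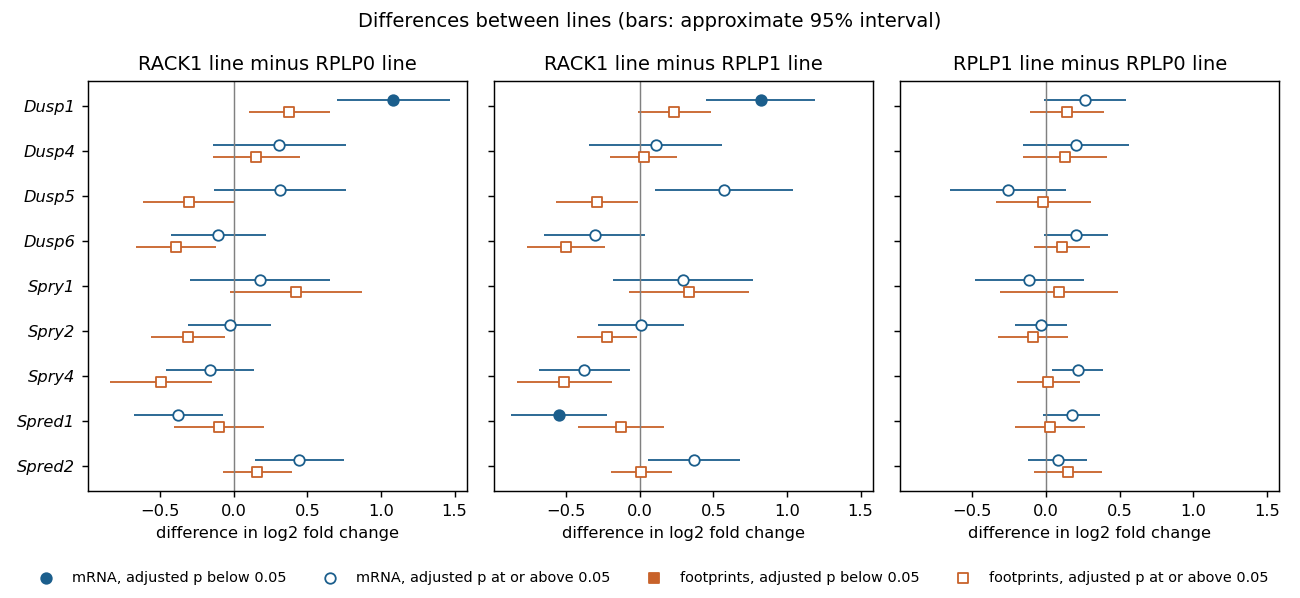
Difference in log2 fold change between lines for the 9 inhibitors, mRNA as circles and footprints as squares, with bars for the approximate 95% interval and filled symbols for an adjusted p below 0.05. Filled symbols are Dusp1 in RACK1 minus RPLP0 (1.09) and RACK1 minus RPLP1 (0.82), and Spred1 in RACK1 minus RPLP1 (-0.55), all in mRNA.

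The rest of the pathway was read from 6 lists, for which the shares of all genes called are those given above. Among ERK-responsive transcripts, 4 of 18 measured rose in mRNA after RACK1 removal and none fell, beside the 0.17% of all mRNAs called higher. They were the immediate-early transcription factor genes Egr1 (1.19, FDR 4.05e-09), Junb (0.80, FDR 0.00125) and Fos (1.11, FDR 0.00143), and Ier2 (0.41, FDR 0.0444), in the authors' deposited table. Egr1 and Fos were also called in footprints there, at 0.87 and 0.92 (FDR 0.00151 each) in the authors' deposited table. Of the 18 mRNAs, 10 lay above 0 in the RACK1 line and 8 below. Those below included Etv1 (-0.32, FDR 0.809), Etv4 (-0.03, FDR 0.947) and Etv5 (-0.18, FDR 0.486) in the authors' deposited table. In the RPLP0 line 3 of 17 rose and 2 fell: the authors' deposited table gave Ier2 at 0.26 (FDR 0.000345), Fosl1 at 1.87 (FDR 0.00373), Myc at -0.48 (FDR 0.000137), Etv5 at -0.23 (FDR 0.00118) and, named after its value was seen, Phlda1 at 0.41 (FDR 0.00542). In footprints of that line Phlda1 rose (0.74, FDR 0.0118) and Myc fell (-0.31, FDR 0.0492) in the authors' deposited table. Etv5 footprints there had 0.02 (FDR 0.871) in the authors' deposited table. In the RPLP1 line no mRNA of this list was called, 4 of 17 having an implied p below 0.05 beside 29.1% of all mRNAs, and Phlda1 was the 1 footprint increase (0.67, FDR 0.00994) in the authors' deposited table.

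Near the receptor, 3 of 15 ligands, receptors and adaptors fell in mRNA after RPLP1 removal and none rose. These were the receptor Fgfr1 (-0.45, FDR 0.000435) and the ligands Fgf15 (-0.63, FDR 0.0015) and Fgf4 (-0.26, FDR 0.00596) in the authors' deposited table. Fgf15 also fell in footprints there (-0.50, FDR 0.00329) in the authors' deposited table. After RPLP0 removal 2 of 14 fell and none rose, the adaptor Grb2 (-0.21, FDR 0.0131) and the phosphatase Ptpn11 (-0.18, FDR 0.0354), in the authors' deposited table. Their footprint changes there were -0.03 (FDR 0.841) and -0.14 (FDR 0.289) in the authors' deposited table. In footprints of the RPLP0 line the authors' deposited table had the receptor gene Fgfr4 higher (0.78, FDR 0.0422) and Fgf15 lower (-0.76, FDR 0.0116). Of 18 genes of the Ras, Raf, MEK and ERK relay and of the ribosomal S6 kinases, RSK downstream of ERK and the mTOR target S6K1, 1 rose and 1 fell in mRNA in the RPLP1 line and 1 rose and 2 fell in the RPLP0 line. Mapk3, which encodes ERK1, fell in both, with -0.31 (FDR 0.00435) in RPLP1 and -0.32 (FDR 0.00191) in RPLP0, in the authors' deposited table. The others were the S6 kinase gene Rps6kb1 (0.33, FDR 0.00654) in RPLP1, and the Raf gene Araf (0.37, FDR 0.000923) and the RSK gene Rps6ka2 (-0.30, FDR 0.0459) in RPLP0, per the authors' deposited table. In RPLP1 footprints the Ras gene Nras rose (0.17, FDR 0.0425) and Mapk3 fell (-0.19, FDR 0.0419) in the authors' deposited table. Mapk3 footprints in the RPLP0 line had 0.0090 (FDR 0.975) in the authors' deposited table. No gene of either list was called in the RACK1 line. There 1 footprint value and no mRNA value had an implied p below 0.05, beside 8.29% and 10.7% of all genes.

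Other negative regulators were called in the opposite direction to Dusp6 and Spred1 in the RPLP1 line. Of 13 measured, 3 fell in mRNA and the same 3 in footprints, and none rose. They were the receptor inhibitors Lrig3 (-0.44, FDR 0.00285), Il17rd (-0.30, FDR 0.00445) and Lrig1 (-0.38, FDR 0.0122), with mRNA values from the authors' deposited table. Il17rd encodes Sef, which is induced together with Dusp6 and the Sprouty genes by FGF in the embryo. In the RPLP0 line 2 of 13 fell in mRNA, the ERK phosphatase Dusp9 (-0.28, FDR 0.00641) and the ubiquitin ligase Cblb (-0.39, FDR 0.0483), per the authors' deposited table. None of 13 was called in the RACK1 line. There 3 mRNA values and 1 footprint value had an implied p below 0.05, beside 10.7% and 8.29% of all genes.

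Genes with profiles most like the phosphatases over the 6 changes were sought among 3103 genes with a called value in some line. By Euclidean distance to the median profile of the 4 phosphatases the nearest were Pcbp1 (0.131), Eif4g2 (0.168), Asf1b (0.205), Dmd (0.220) and Nifk (0.225). Nearest to the median profile of the 5 Sprouty and Spred genes were Vdac2 (0.106), Ldhb (0.134), Ppp2ca (0.139), Asns (0.141) and Tubb4b (0.142). These distances are on the log2 scale over 6 values, and both median profiles lie near 0, apart from the 0.37 of the phosphatases for mRNA in the RACK1 line.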

How the data were processed

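The deposited files were 3 tables, 1 per degron line, with 1 row per gene. Per the file headers, the authors gave log2 fold changes of mRNA and footprints after removal, an FDR (adjusted p-value) for each, and a class code, a score from 0 to 3 for no change, mRNA change, footprint change or both. The sources used here do not give the test, aligner, counting, annotation or build, and no column of values per sample was used. How footprint FDRs were made from 1 combined sample per line is likewise not stated, so it is unknown what spread they measure.

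Calls are the authors' FDR below 0.05. From each deposited FDR a p-value was recovered by undoing the Benjamini-Hochberg step. Within stretches of equal FDR, genes were ordered by the size of their change, largest first, and values were spread evenly. The SE is the log2 fold change over the matching normal quantile, so within such stretches it depends partly on that ordering. Footprint minus mRNA changes, and differences between lines matched by transcript ID, were tested against combined SEs (normal approximation, Benjamini-Hochberg over all genes of the table or tables). This is approximate and assumes independent errors. The planned protein comparison was not made. Promoter windows came from RefSeq (GRCm38.p6) and were matched by symbol. Inhibitor windows on a chromosome that was set aside were not used. Of the 9 genes 7 had a window used, all but Dusp4 and Spry4. Genes of each pathway list were named up to 4 per line and assay by smallest FDR, and like genes by distance; 1 footprint result of the cascade list is not reported here. Members, lists and tests were chosen with earlier results of these data known. Alternatives are given in the closing section. Python 3.11.15, pandas 2.3.3, numpy 2.4.6, SciPy 1.17.1 and matplotlib 3.10.9 were used.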

Additional observations from a re-analysis of the deposited data

Results flagged for a closer look

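Differences between lines passed the approximate test for 3 values, each a difference of mRNA log2 changes between lines that have separate controls. Dusp1 was 1.09 higher in the RACK1 line than in the RPLP0 line (0.74 in RACK1 and -0.35 in RPLP0; SE 0.20). Dusp1 was also 0.82 higher in the RACK1 line than in the RPLP1 line (0.74 in RACK1 and -0.08 in RPLP1; SE 0.19). Spred1 differed by -0.55 between the RACK1 line and the RPLP1 line (-0.25 in RACK1 and 0.30 in RPLP1; SE 0.17). Footprints of these genes did not pass in the same comparisons: Dusp1 had 0.38 in RACK1 minus RPLP0 (SE 0.14) and 0.23 in RACK1 minus RPLP1 (SE 0.13), and Spred1 had -0.13 in RACK1 minus RPLP1 (SE 0.15).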

How the results depend on the processing

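No paired analysis was possible because the tables hold 1 value per gene and comparison and none per sample; for the same reason no replicate could be left out. Counts of called inhibitors moved with the threshold. At an FDR below 0.01, 0 were called in RPLP0 mRNA (1 at 0.05), 1 in RPLP1 mRNA (2 at 0.05) and 0 in RPLP1 footprints (1 at 0.05). At an FDR below 0.1, 1 was called in RPLP0 footprints and 2 in RPLP1 footprints. The authors' class codes gave 4 in RPLP0 mRNA, 1 in RPLP0 footprints and 2 in RPLP1 footprints. Those classes held 2738 and 860 of 12353 genes in RPLP0 mRNA and footprints, and 1840 of 12274 in RPLP1 footprints. Both footprint classes end at an FDR of 0.1, so their sizes hold for that threshold too. Adjusting over the genes with an SE at or below the table median left 0 in RPLP0 mRNA, because Dusp1 is not among those genes there. An error correlation of 0.5 between assays gave 2 inhibitors with changed translation efficiency in RACK1 (0 without it). Standard errors multiplied by 1.5 left 0 inhibitors that differ in mRNA between RACK1 and RPLP0 (1 before) and 0 between RACK1 and RPLP1 (2 before). Subtracting the median of each table turned 1 difference, Spry2 mRNA in RACK1 minus RPLP1, to -0.00043 from 0.0053; that value was never called. The counts called in the pathway lists moved in 6 cases at 0.01 and in 11 at 0.1, thresholds added for those lists after seeing the data. A move meant a change of over 1.5 times, or a count going to or from 0. Subtracting medians, leaving out the inhibitor with the largest change and, chosen after seeing the data, giving each run of equal FDR its highest p changed no call among the inhibitors. They moved no median over the 9 inhibitors by more than their median SE, though without the gene of largest change the mRNA median was 0.12 in RACK1 (0.19 with it), 0.034 in RPLP0 (0.0092 with it) and -0.015 in RPLP1 (0.049 with it). Depth is unknown and limits every value by an unknown amount.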

Other observations

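A list of 14 further dual-specificity phosphatases, which leaves out Dusp7 and Dusp9 as ERK phosphatases counted among the other negative regulators, had no called value in any line. In the RACK1 line 8 of 10 measured were above 0 in mRNA, with a median of 0.20, and the same count held in footprints, with a median of 0.13; 1 mRNA value and 2 footprint values had an implied p below 0.05, as did 10.7% and 8.29% of all genes. The mRNA median of this list was 0.12 in RPLP0 over 9 genes and -0.04 in RPLP1 over 8.

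Transcriptional regulators and mRNA decay factors known to act on these inhibitors had 2 called values. Cic, a repressor that ERK inactivates and that holds down Dusp6, Spred and Etv genes, fell in mRNA after RPLP1 removal, with -0.29 (FDR 0.00415), beside footprints at -0.05 (FDR 0.545), in the authors' deposited table. It was 1 of 11 called lower in mRNA there, where 8.59% of all mRNAs were called lower. The mRNAs of Etv1, Etv4 and Etv5 had 0.02, -0.10 and 0.09 in that line, none called. A link between Cic and these genes or the inhibitors was not tested. Ets2 fell in mRNA after RPLP0 removal, with -0.41 (FDR 0.00169), beside footprints at -0.27 (FDR 0.0516), per the authors' deposited table. It was 1 of 11 called lower in mRNA in the RPLP0 line, where 4.9% of all mRNAs were called lower. No gene of this list was called in the RACK1 line. There 4 mRNA values and 1 footprint value of 11 had an implied p below 0.05, beside 10.7% and 8.29% of all genes.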
